A study of Mus musculus with 8 samples.

Results

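The 10 genes of amino acid synthesis and uptake described here, each known as a target of the transcription factor ATF4, were read in mouse pancreas of 2 Lmna genotypes. They were chosen by name, with earlier results of these data known. Of the 10, 9 had a row in the array table under their own symbol, out of 22180 genes measured. Asns makes asparagine, Phgdh, Psat1 and Psph make serine from a glycolytic intermediate, Shmt2 and Mthfd2 pass serine's carbon to folate in mitochondria, and Aldh18a1 and Pycr1 make proline from glutamate. Slc7a11 and Slc7a5 are transporters of the plasma membrane. Pycr1, the last enzyme of proline synthesis, had no row under its symbol and is not analysed here. One member, Slc7a11, had 2 rows, of which the one with the higher mean was used.

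The study measured total RNA of pancreas from C57 BL6 mice on 8 arrays, 4 labelled LmnaWT (called WT here) and 4 labelled LmnaKO (KO). Each genotype held 3 males and 1 female, and replicate 4 was the female in each. All 8 mice received tamoxifen by intraperitoneal injection, 3 mg per 40 g, and the titles give the time as 6 days. Tamoxifen is commonly used to switch on an inducible Cre recombinase. By the title, the deletion of Lmna, the gene of lamin A/C of the nuclear envelope, was in acinar cells. Neither the Cre driver, the alleles of the controls nor the ages of the mice are given by the labels. The arrays measured all cells of the organ, so fewer cells of a type and less RNA per cell cannot be told apart. The labels name separate samples without saying how the mice were chosen, so p-values rest on the variation among these samples, which may be partly technical.

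ATF4 is made when kinases of the translation factor eIF2 are active, because its messenger RNA is then translated more efficiently. It binds with partners of the C/EBP family to C/EBP-ATF response elements, and its target genes supply amino acids, charge transfer RNAs and, in a feedback loop, limit the response itself. The acinar cell makes and secretes digestive enzymes in bulk and is known for a high demand for amino acids and a strongly developed endoplasmic reticulum.

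Promoter sequence was available for 9 of the 10 genes (all but Slc7a5), from RefSeq on the mouse build GRCm38.p6. The core of the C/EBP-ATF response element, TGATGNAA on either strand, was found in the 250 bases before the start of 3 of these 9 genes, Asns, Pycr1 and Slc7a11. Among all genes it was found in 1056 of 27025, or 1134 of 32851 such windows (3.45%), as some genes have several windows. Asns and Slc7a11 are printed here because both genes carry the core and were measured, with Fgf21 and Atf3 as genes of the ATF4 pathway that also carry it and that rose in KO. The latter pair was chosen after their values were seen. Capitals mark the core, each sequence is read 5′ to 3′ along the gene's strand and ends at the base before the start.
Asns: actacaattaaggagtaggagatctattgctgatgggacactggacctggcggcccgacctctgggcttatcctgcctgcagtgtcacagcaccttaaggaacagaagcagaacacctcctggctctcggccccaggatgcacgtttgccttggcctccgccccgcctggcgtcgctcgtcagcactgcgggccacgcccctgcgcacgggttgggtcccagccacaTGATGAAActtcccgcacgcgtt
Slc7a11: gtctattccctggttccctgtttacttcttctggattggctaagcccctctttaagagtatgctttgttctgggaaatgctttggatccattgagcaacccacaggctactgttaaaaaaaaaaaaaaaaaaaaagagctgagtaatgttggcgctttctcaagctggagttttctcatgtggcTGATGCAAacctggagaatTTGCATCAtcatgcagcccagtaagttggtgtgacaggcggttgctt
Fgf21: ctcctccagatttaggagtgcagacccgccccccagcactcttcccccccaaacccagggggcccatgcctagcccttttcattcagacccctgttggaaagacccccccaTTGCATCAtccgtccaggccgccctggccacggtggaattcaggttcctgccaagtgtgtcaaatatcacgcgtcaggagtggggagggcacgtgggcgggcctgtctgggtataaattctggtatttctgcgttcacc
Atf3: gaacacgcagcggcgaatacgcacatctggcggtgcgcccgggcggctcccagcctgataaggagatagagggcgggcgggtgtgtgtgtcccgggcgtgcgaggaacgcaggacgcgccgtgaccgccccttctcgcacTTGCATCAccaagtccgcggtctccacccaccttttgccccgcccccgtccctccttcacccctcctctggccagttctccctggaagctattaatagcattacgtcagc

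The Asns window lies at chr6:7693210-7693459 on the minus strand, with the core 23 to 16 bases before the start. The Slc7a11 window lies at chr3:50443614-50443863, minus strand, with a core 66 to 59 bases before the start and another, on the opposite strand, 47 to 40 bases before it. The window of Fgf21 is chr7:45615491-45615740 and that of Atf3 is chr1:191183334-191183583, both on the minus strand, with the core on the opposite strand 139 to 132 and 110 to 103 bases before the start. The core of the antioxidant response element, TGACNNNGC on either strand, was found in 2 of the 9 genes, Asns and Phgdh. It shared no base with the other core. Among all genes it was found in 3112 of 27025, or 3338 of 32851 windows (10.2%). A match describes the letters of a window only. The windows of Phgdh, Psph, Shmt2, Mthfd2 and Aldh18a1 and both windows of Psat1 held no TGATGNAA.

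No member passed the main test between the genotypes, on the values as deposited, so the ATF4 targets of this group were not called higher in KO. The test was limma on log2 values over all genes, with Benjamini-Hochberg adjustment and a threshold of 0.05, and 0 of the 9 were higher and 0 lower in KO. Of all genes 21.6% passed, 14.6% higher (3241 genes) and 6.99% lower (1551 genes). After a second quantile normalization the split was 1228 higher to 1142 lower, after cyclic loess 1521 to 1178, and after median centring 4390 to 615. Members called lower were 2 of the 9 after the second quantile normalization and 2 after cyclic loess, Mthfd2 and Slc7a5. After median centring 0 were lower, and 0 were higher in any of these settings. At an unadjusted limma p under 0.05, 3 of the 9 passed, Slc7a5, Slc7a11 and Mthfd2, against 39.1% of all genes. The arrays of the 2 genotypes overlapped in each of the 9, leaving 0 without overlap against 27.4% of all genes. The changes ran from -0.57 for Slc7a5 to 0.75 for Slc7a11 (log2, KO minus WT), 5 above and 4 below 0, with a median of 0.09 beside -0.06 for all genes.

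The 9 genes were read at levels where changes between the genotypes were common. Silent genes served as a floor, and the level that 95% of 1394 olfactory and vomeronasal receptor genes stayed under was 2.26. No member lay under it. Of the genes at a mean level of 4 to 5, which holds Psph, 40% passed. The share was 42.8% at 5 to 6 (Phgdh, Psat1 and Slc7a11), 38.5% at 6 to 8 (Shmt2, Mthfd2, Aldh18a1 and Slc7a5) and 36.2% at 8 or more (Asns). The median change of all genes in these bins was 0.45, 0.50, 0.39 and 0.08. A change between 0.46 (Psph) and 0.94 (Slc7a11) would have been called at the members' own standard errors, which is a fold of 1.37 to 1.92.

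**Figure D1:**
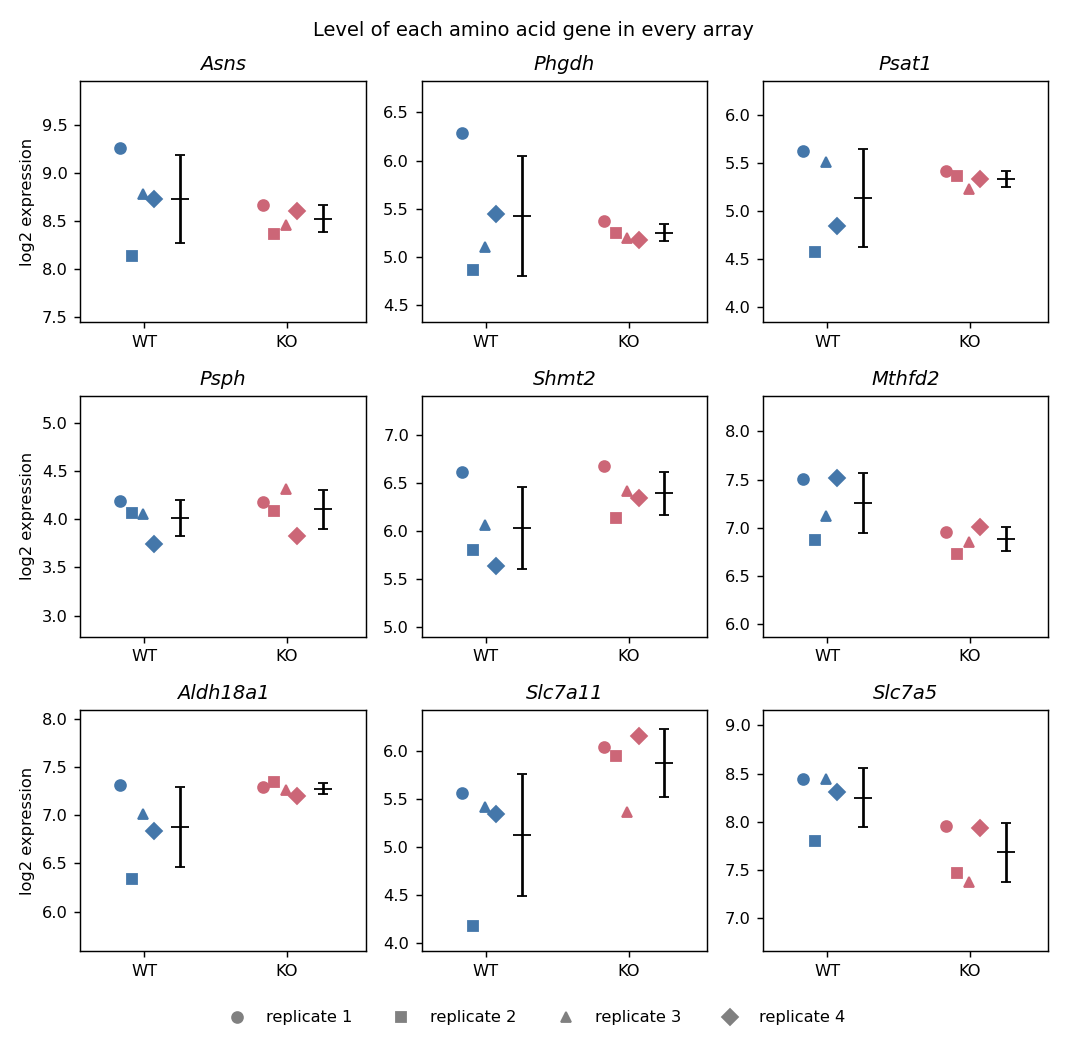
Log2 expression of the 9 measured genes in every array, with WT in blue and KO in red, the marker giving the replicate number and the bar the mean ± SD of 4 arrays. Each panel spans the same height on the log2 axis. The WT points of Asns, Phgdh and Psat1 spread wider than the KO points, which all lie inside the WT range.

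Asns, asparagine synthetase, read 9.26, 8.14, 8.78 and 8.73 in the WT arrays (WT 1 to WT 4, in this order throughout) and 8.67, 8.37, 8.46 and 8.60 in the KO arrays (KO 1 to KO 4). All 4 KO arrays lay between the lowest and the highest WT array. The means were 8.73 ± 0.46 in WT and 8.52 ± 0.14 in KO (SD, n = 4 per group). The change was -0.20 ± 0.21 (SE, 95% interval -0.67 to 0.27, limma adjusted p = 0.484), so the interval reaches a fold of at most 1.20 upward. With a repeated quantile normalization the change was -0.43 and with cyclic loess -0.45, not called in either.

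None of the 3 serine enzymes passed the test. Phgdh, phosphoglycerate dehydrogenase, which starts the pathway, read 6.29, 4.87, 5.10 and 5.45 in WT and 5.38, 5.25, 5.20 and 5.18 in KO. WT 1 stood above the other 7 arrays, and the KO arrays stayed within 0.20 of each other. Its change was -0.17 ± 0.26 (95% interval -0.76 to 0.42, limma adjusted p = 0.638), and without WT 1 it was 0.11. It was -0.58 when quantile normalization was repeated and -0.57 under cyclic loess, not called in either.

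Psat1, the transaminase of the second step, read 5.62, 4.58, 5.51 and 4.84 in WT and 5.42, 5.37, 5.22 and 5.34 in KO. The KO arrays again lay inside the WT range. The change was 0.20 ± 0.22 (-0.30 to 0.70, limma adjusted p = 0.518). Psph, the phosphatase of the last step, read 4.19, 4.07, 4.05 and 3.75 in WT and 4.17, 4.09, 4.32 and 3.83 in KO. The lowest array of each genotype was the female. Its change was 0.09 ± 0.15 (-0.24 to 0.41, limma adjusted p = 0.663). After a second quantile normalization the changes of Psat1 and Psph were -0.21 and -0.24, and after cyclic loess -0.20 each, still not called.

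Neither mitochondrial folate enzyme passed the test. Shmt2, serine hydroxymethyltransferase, read 6.61, 5.81, 6.06 and 5.64 in WT and 6.67, 6.14, 6.41 and 6.34 in KO. WT 1 was as high as the KO arrays, while the other 3 WT arrays lay below all of them. The change was 0.36 ± 0.21 (-0.11 to 0.83, limma adjusted p = 0.224). It passed without WT 1 (0.55, limma adjusted p = 0.036) and turned to -0.047 when quantile normalization was repeated and to -0.043 under cyclic loess.

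Mthfd2, the dehydrogenase and cyclohydrolase that follows, read 7.51, 6.88, 7.12 and 7.52 in WT and 6.95, 6.72, 6.85 and 7.01 in KO. WT 2 lay among the KO arrays, and the other 3 WT arrays were above all of them. The change was -0.37 ± 0.16 (-0.74 to -0.01, limma adjusted p = 0.123). Mthfd2 passed as lower without WT 2 (-0.50, limma adjusted p = 0.0443), after a second quantile normalization (-0.70, adjusted p = 0.0111) and after cyclic loess (-0.74, adjusted p = 0.00651).

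Aldh18a1, which makes the precursor of proline from glutamate, was steady in KO at 7.30, 7.34, 7.26 and 7.20, and read 7.32, 6.33, 7.02 and 6.84 in WT. WT 1 reached the KO level and the other 3 WT arrays did not. The change was 0.40 ± 0.19 (-0.02 to 0.82, limma adjusted p = 0.145). It passed without WT 1 (0.55, adjusted p = 0.041), was 0.22 without WT 2 and shrank to 0.03 after cyclic loess.

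Neither transporter passed the test. Slc7a11, the cystine and glutamate exchanger xCT, read 5.56, 4.18, 5.42 and 5.34 in WT and 6.03, 5.94, 5.36 and 6.15 in KO. In all, 3 KO arrays lay above all WT arrays, and KO 3 lay among WT 1, WT 3 and WT 4. The change was 0.75 ± 0.30 (0.08 to 1.42, limma adjusted p = 0.0969), and an exact two-sided permutation test gave p = 0.0857. WT 2 was far below the other WT arrays, and without it the change was 0.43. It was 0.35 when quantile normalization was repeated (limma adjusted p = 0.425) and 0.34 under cyclic loess (adjusted p = 0.402). The other row of Slc7a11 read between 1.26 and 1.58 in all 8 arrays, under the level of silent genes.

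Slc7a5, the large neutral amino acid transporter LAT1, read 8.44, 7.80, 8.44 and 8.31 in WT and 7.95, 7.47, 7.37 and 7.94 in KO. WT 2 lay below KO 1 and KO 4, and the other 3 WT arrays were above all KO arrays. The change was -0.57 ± 0.19 (95% interval -0.9998 to -0.13, limma adjusted p = 0.063), and an exact two-sided permutation test gave p = 0.0857. With the replicate number as a block it passed at the same value (limma adjusted p = 0.0407). It also passed with array weights (-0.59, adjusted p = 0.0415), without WT 2 (-0.71, adjusted p = 0.0265), after a second quantile normalization (-0.82, adjusted p = 0.0181) and after cyclic loess (-0.87, adjusted p = 0.00728).

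Members and relatives were set against each other within each array, because a shift shared by all genes of an array cancels in the difference of a pair, although a wider spread of values does not. Of 8 pairs listed, 6 could be formed, and 2 with Pycr1 could not. An exact two-sided permutation test over 4 against 4 arrays can go no lower than 0.0286, and p was adjusted over the 6 pairs. No pair passed the adjustment. The 3 pairs described next reached the smallest p possible (exact permutation p = 0.0286, adjusted p = 0.0571), with no overlap between the genotypes. With 6 pairs none can pass the adjustment unless at least 4 reach that smallest p, so whether a pair passed depended on the other pairs. Without KO 1 the pair of Slc7a5 and Slc7a8 reached it too, which brought all 4 to an adjusted p of 0.0429.

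Slc7a5 minus its heavy chain Slc3a2, the glycoprotein that carries LAT1 and xCT to the membrane, was between -0.04 and 0.24 in WT and between -1.23 and -0.65 in KO. The pair changed by -0.89, Slc7a5 by -0.57 and Slc3a2 by 0.32 ± 0.15 (limma adjusted p = 0.146). Shmt2 minus its cytosolic paralog Shmt1 rose from 3.06 ± 0.21 to 3.83 ± 0.38 (SD, n = 4 per group), a change of 0.77, with Shmt1 at -0.41 ± 0.16 (limma adjusted p = 0.0966). Shmt1 was dim, with means of 2.97 in WT and 2.56 in KO beside a level of silent genes of 2.26. All genes under a mean level of 4 had a median change of -0.15, and those at 6 to 8, where Shmt2 lay, 0.39. The part of the wider KO distribution in this pair was not tested. Mthfd2 minus the cytosolic enzyme Mthfd1 went from 2.17 ± 0.16 to 1.69 ± 0.15, a change of -0.48, with Mthfd1 at 0.11 ± 0.16 (limma adjusted p = 0.619). The other changes were -0.35 for Slc7a5 minus its paralog Slc7a8 (exact permutation p = 0.0571, adjusted p = 0.0857), -0.23 for Mthfd2 minus its paralog Mthfd2l (0.286 and 0.286) and 0.42 for Slc7a11 minus Slc3a2 (0.171 and 0.206). Both Slc7a5 pairs and both Mthfd2 pairs passed after cyclic loess and after a second quantile normalization (adjusted p = 0.0429 each). The other pairs, Shmt2 minus Shmt1 among them, passed in neither.

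WT arrays differed from each other more than KO arrays did in 7 of the 9 genes. The median SD of the members was 0.43 in WT and 0.14 in KO, beside 0.25 and 0.17 over all genes, and the KO SD was below the WT SD in 66.9% of all genes. WT 1 was the highest WT array in 8 of the 9 members and WT 2 the lowest in 7. Over all genes WT 1 was highest in 27.7% and WT 2 lowest in 30.5%. The mean member level was 6.76 in WT 1, 5.85 in WT 2, 6.39 in WT 3 and 6.27 in WT 4, against 6.27 to 6.51 in the KO arrays. Without both WT 1 and WT 2, a choice made after seeing these values, 0 members were called higher and 0 lower, with Slc7a5 at -0.69 (limma adjusted p = 0.0513) and Shmt2 at 0.54 (adjusted p = 0.0844).

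**Figure D2:**
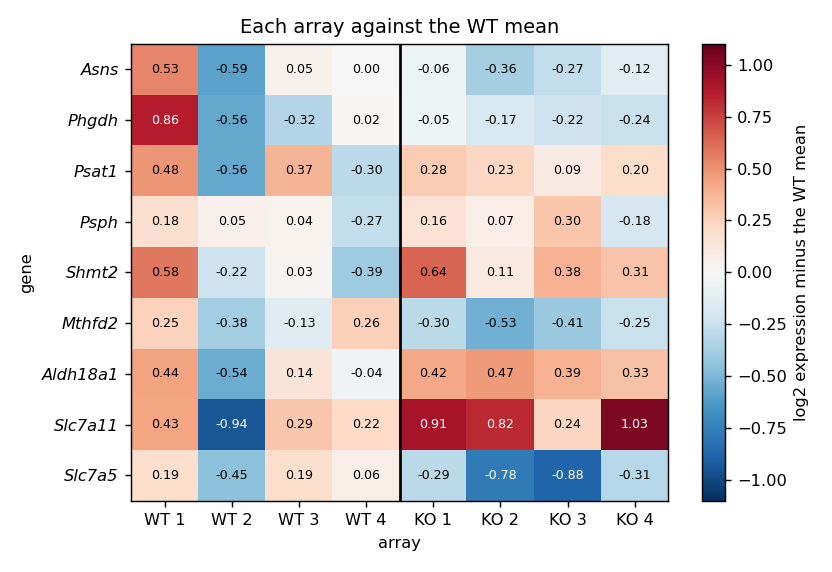
Log2 expression of each measured gene (down) in each array (across) minus the mean of the 4 WT arrays, with the value in each cell and red for above and blue for below that mean. The column of WT 1 is above the mean in every row, and that of WT 2 is below it in every row but that of Psph.

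The genes whose profile over the 8 arrays lay nearest to Asns were Sil1, Deptor, Ppib, Nr5a2 and Pcmtd1. They were the 5 smallest of 1551 genes with a mean level of at least 6, by the root mean square difference of values from the gene's own WT mean, which ran from 0.10 for Sil1 to 0.13 for Pcmtd1 against a median of 0.50. Sil1 and Ppib act in protein folding in the endoplasmic reticulum, Deptor inhibits mTOR, and Nr5a2 is a transcription factor of acinar cells. Their changes were between -0.30 (Ppib) and -0.13 (Deptor), and 0 of the 5 passed the test, as the choice by likeness to Asns on the same arrays would favour.

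In a list of eIF2 kinases, ATF4, its partners and feedback genes, 10 of 21 measured genes were higher in KO (47.6%) and 0 lower. Of all genes 14.6% were higher, and 33.1% to 39.7% of those in the level bins from 4 to 8. The difference between this list and the 9 amino acid genes was not tested. The median change of the list was 0.70. After a second quantile normalization 10 were higher and 2 lower, and after cyclic loess 9 and 2. Ddit3 (CHOP), the pro-apoptotic partner of ATF4, read 4.19, 2.91, 3.61 and 4.20 in WT and 8.93, 8.05, 8.52 and 7.96 in KO, a change of 4.64 ± 0.31 (limma adjusted p = 0.000298). Trib3, a pseudokinase that restrains ATF4, read between 2.95 and 3.31 in WT and between 4.86 and 5.84 in KO (2.27 ± 0.20, adjusted p = 0.000695). All KO arrays of these genes lay above all WT arrays.

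Nfe2l2 (NRF2), which also drives Slc7a11, rose by 1.54 ± 0.16 (limma adjusted p = 0.00115) and the eIF2 kinase Eif2ak2 (PKR) by 1.18 ± 0.14 (adjusted p = 0.00194). The other eIF2 kinases were not called. Their changes were 0.53 ± 0.29 for Eif2ak1 (limma adjusted p = 0.194), 0.27 ± 0.14 for Eif2ak3 (adjusted p = 0.177) and -0.19 ± 0.14 for Eif2ak4 (adjusted p = 0.325). Atf4 itself read 7.42, 7.15, 7.52 and 7.97 in WT and 8.40, 7.67, 8.12 and 8.01 in KO. WT 4 lay above KO 2 and below the other KO arrays. The change was 0.53 ± 0.20 (95% interval 0.08 to 0.99, limma adjusted p = 0.0834), and it passed without WT 4 (0.69, adjusted p = 0.0427) and after median centring (0.67, adjusted p = 0.0446). It was 0.28 when quantile normalization was repeated and 0.22 under cyclic loess, not called. Of the 4 genes of this list with the response element core in the window, Fgf21 rose by 2.96 ± 0.41 (limma adjusted p = 0.00249), Atf3 by 2.06 ± 0.31 (adjusted p = 0.00373) and Nupr1 by 0.70 ± 0.21 (adjusted p = 0.0386), while Vldlr, with the core in 1 of its 2 windows, had 0.16 ± 0.22 (adjusted p = 0.605). Nupr1 lost its call in 10 of 20 alternatives. Of the 15 measured genes of the list whose windows lacked the core, 7 were higher, Ddit3 and Trib3 among them. The members with the core that were measured, Asns and Slc7a11, had -0.20 and 0.75.

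**Figure D3:**
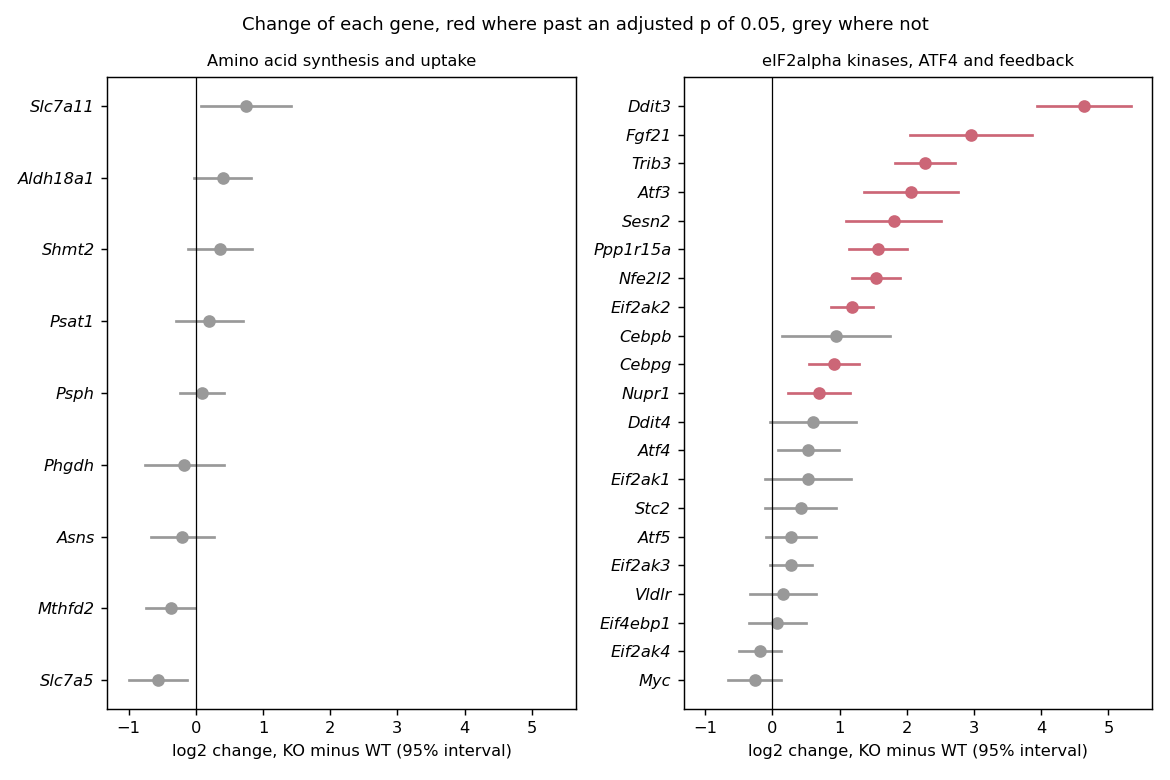
Log2 change between KO and WT (horizontal, point) with its 95% interval (line) for the 9 amino acid genes and for 21 genes of the eIF2alpha kinase, ATF4 and feedback list. Red marks genes past an adjusted p of 0.05. No amino acid gene is red, while 10 of the 21 are, led by Ddit3 at 4.64.

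Around the members, other genes of amino acid synthesis, breakdown and transport were called in either direction. Of 73 measured genes in 4 lists, 16 were higher (21.9%, beside 14.6% of all genes) and 11 lower (15.1%, beside 6.99%), with a median change of 0.20. The share of all genes called higher was 6.11% under a mean level of 4 and 33.1% to 39.7% in the bins from 4 to 8. Lower calls ran at 8.1% and at 3.14% to 5.43%. The 4 lists hold genes on both sides of that level. A share of higher calls above 14.6%, here or in a single list, is therefore no excess by itself. After a second quantile normalization 7 were higher and 10 lower. Among 16 other serine, glycine and folate genes 3 were higher (18.8%, beside 14.6% of all genes) and 2 lower (beside 6.99% of all genes), with a median of 0.14. Mthfd1l, which releases formate from mitochondria, rose by 1.18 ± 0.23 (limma adjusted p = 0.00907), the mitochondrial folate carrier Slc25a32 by 0.98 ± 0.19 (adjusted p = 0.00835) and methionine synthase reductase Mtrr by 0.80 ± 0.14 (adjusted p = 0.00565). The lower ones were Gcsh, of the glycine cleavage system (-0.80 ± 0.20, adjusted p = 0.0204, a call lost in 4 of 20 alternatives), and Aldh1l1, a cytosolic folate dehydrogenase (-1.27 ± 0.31, adjusted p = 0.0208, a call lost in 5 of 20). Mthfd1l read 4.42, 3.36, 4.18 and 3.72 in WT and 5.41, 4.80, 5.17 and 4.997 in KO, with every KO array above every WT array.

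Of 18 measured aspartate, glutamate, proline and branched-chain genes 4 were higher and 4 lower (22.2% each, beside 14.6% and 6.99% of all genes, median -0.06). Oat, which links ornithine to the proline precursor, rose by 1.19 ± 0.15 (limma adjusted p = 0.00204), from 5.10 ± 0.20 to 6.29 ± 0.20 (SD, n = 4 per group). Got1, the cytosolic aspartate aminotransferase, rose by 1.11 ± 0.21 (adjusted p = 0.00758) and its mitochondrial counterpart Got2 by 0.41 ± 0.12 (adjusted p = 0.0418), a call lost in 16 of 20 alternatives. Gpt2, the mitochondrial alanine aminotransferase, rose by 0.78 ± 0.21 (adjusted p = 0.0282), a call lost in 9 of 20 alternative analyses. Lower were the branched-chain aminotransferase Bcat2 (-0.63 ± 0.13, adjusted p = 0.011), the proline-degrading Prodh (-0.77 ± 0.21, adjusted p = 0.0315, lost in 11 of 20), Prodh2 and Ass1. Prodh2, Ass1 and the transporter Slc6a19 had both group means under the level of silent genes.

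Among 9 transsulfuration and glutathione genes Cbs, which makes cystathionine from homocysteine, changed by -0.93 ± 0.12 (limma adjusted p = 0.00204), with 7.84 to 8.04 in WT and 6.86 to 7.19 in KO. Its partner Cth differed by 0.61 ± 0.43 (adjusted p = 0.303), with WT arrays from 5.27 to 7.81, and was called without WT 1 (1.04, adjusted p = 0.0346). The thioredoxin reductase Txnrd1 (0.81 ± 0.13, adjusted p = 0.00475) and glutathione reductase Gsr (0.84 ± 0.21, adjusted p = 0.0213) were higher. Both lost the call when quantile normalization was repeated (0.39 and 0.42) and under cyclic loess (0.41 and 0.44).

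Of 30 other amino acid transporters 7 were higher (23.3%, beside 14.6% of all genes) and 4 lower (13.3%, beside 6.99%), with a median of 0.21, and after a second quantile normalization 3 were higher. Slc38a1, a sodium-coupled glutamine transporter, read 4.71, 4.51, 5.03 and 4.47 in WT and 6.27, 6.42, 6.36 and 6.37 in KO (1.68 ± 0.14, limma adjusted p = 0.00057). Slc38a4 rose by 1.44 ± 0.22 (adjusted p = 0.00367) and the proton-coupled Slc36a4 by 1.02 ± 0.23 (adjusted p = 0.0146). Slc38a5, a glutamine and glycine transporter of the acinar pancreas, changed by -1.34 ± 0.28 (adjusted p = 0.0113), at 7.43, 7.15, 7.09 and 7.15 in WT and 6.51, 6.18, 5.004 and 5.76 in KO. Genes named here beyond the 4 of smallest p in a list, such as Aldh1l1, Got2, Prodh and the genes with a response element core, were chosen after their values were seen.

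**Figure D4:**
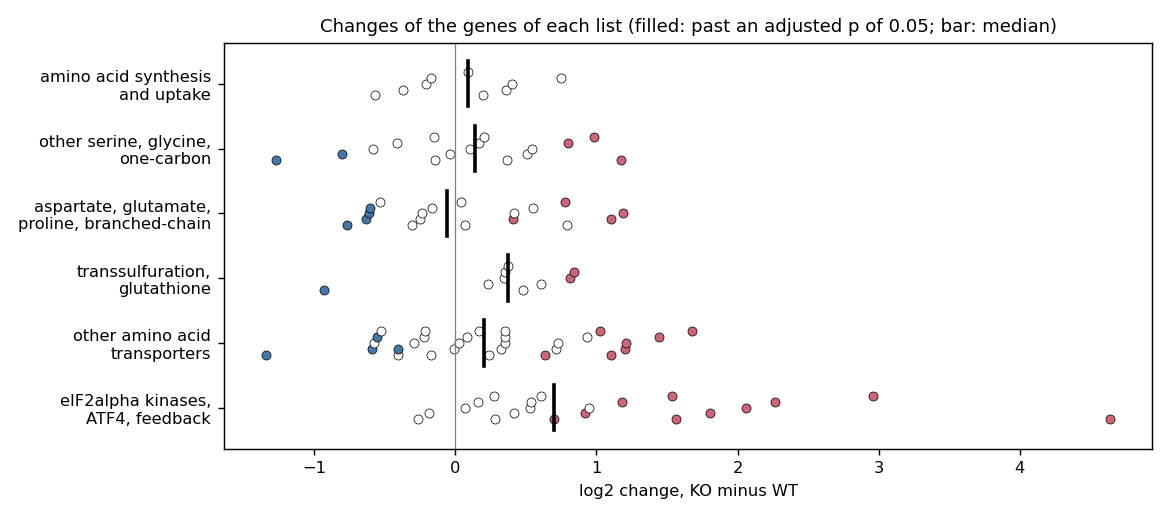
Log2 change between KO and WT (horizontal) of each measured gene in 6 lists, filled red or blue where past an adjusted p of 0.05, with a bar at the median of the list. The amino acid synthesis and uptake list at the top has no filled point, and the ATF4 feedback list at the bottom has 10.

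Several facts of the whole series stand beside these values. The targeted Lmna row was dim, at 2.81 ± 0.26 in WT and 2.56 ± 0.17 in KO (change -0.24 ± 0.15, limma adjusted p = 0.264), and where its probes lie relative to the deletion is unknown, so it does not check the labels. Over all genes the interquartile range of values was 2.11 to 2.48 in WT and 2.88 to 3.03 in KO arrays. The mean of 7 acinar markers was 9.94 to 10.2 in WT and 9.27 to 9.49 in KO, though Ptf1a and Bhlha15 read far below it. Ptf1a was at 5.12 to 6.39 over all arrays, and Bhlha15 at 6.84 to 6.88 in WT and 5.30 to 5.65 in KO. In all, 3 of the 7 were lower in KO (42.9%, beside 6.99% of all genes and 14.2% of those at a level of 8 or more). Macrophage markers were higher in KO in 3 of 9 genes (33.3%, mean level 3.92 to 5.86 in WT, 5.42 to 7.10 in KO), all 9 with changes above 0. Of 7 proliferation markers 2 were higher (28.6%). Higher calls made up 14.6% of all genes, and 33.1% to 39.7% of those in the level bins from 4 to 8. Of the stellate markers 1 of 10 was higher (10%, 4.76 to 6.02 in WT, 5.22 to 7.08 in KO) and duct markers split, 1 higher and 1 lower of 5 (20% each). Of 5 beta cell markers 2 were lower (40%, beside 6.99% of all genes and 8.1% of those under a level of 4) and 0 higher. The lower ones were dim, Pdx1 at 3.28 in WT and 2.56 in KO and Mafa at 3.39 and 2.62. Ins2, Iapp and Slc2a2 changed by 0.10, 0.19 and 0.11, not called. The other islet markers Gcg, Sst and Ppy changed by 0.21, 0.14 and 0.22, not called either. The part of these cell types and of the wider KO distribution in the members' values was not tested. The change in the females minus that in the males ran from -0.18 (Mthfd2) to 0.46 (Shmt2) over the 9 members. With only 1 female array per genotype, whether the change differed between the sexes cannot be decided.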

How the data were processed

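The members and gene lists were chosen with earlier results of these data known. Labelled cDNA came from 100 ng of RNA, per the labels' protocols. The authors deposited RMA values for 41345 rows, which were read as log2 from their range because no source used here states the log base. The submitters' processing notes name limma, oligo and RMA, a method of background correction and quantile normalization that gives 1 value per probe set. Scan batches, detection calls and the array's build were likewise unstated, and 4 arrays per group limit the precision.

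Rows with several symbols in the platform annotation (1814) or with none (16010) were left out. Each gene kept its row of highest mean (22180 genes, unfiltered). Genotype alone was fitted with limma 3.58.1 (lmFit, eBayes; R 4.3.3) after the steps had been tested on simulated data, and pairs were compared by exact permutation tests. Genes named by rule are the members, their relatives in pairs, Atf4, Lmna, up to 4 called genes of smallest p in each list, and the 5 nearest to Asns. Other genes given with values were chosen after their values were seen. Among them are Fgf21, Atf3, Nupr1, Vldlr, Cth, the eIF2 kinases other than Eif2ak2, and single cell type markers. Deviations of arrays of the same replicate number were weakly correlated across genes (0.26, 0.17, 0.11 and 0.14). Different numbers gave -0.21 to 0.12, so the ranges overlap, and the arrays of number 4 also share sex. Arrays of 1 number were treated as pairs in the block, a reading from these same values and not from the labels.

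Alternatives were a sex term, the replicate block, only the males, omission of each array, repeated quantile normalization, cyclic loess, median centring, eBayes with trend and robust, array weights, a filter on dim rows, the mean of a gene's rows, and all rows. The joint omission of WT 1 and WT 2 was chosen after seeing the data.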

Additional observations from a re-analysis of the deposited data

Results flagged for a closer look

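Among 96 groups of 4 arrays examined for the members and other named genes, 6 held an array that stood far from the other 3, and chance gives about 1 in 20. The 1 member among them was Slc7a11, at 4.18 in WT 2 with the nearest WT array at 5.34. Among the relatives, Mthfd1 read 5.41 in KO 1 (nearest 5.13) and the shared heavy chain Slc3a2 read 8.28 in KO 2 (nearest 8.58). The folate carrier Slc25a32 read 4.55 in WT 1 (nearest 3.95), the transporter Slc38a4 read 2.75 in WT 4 (nearest 2.44), and the kinase Eif2ak2 read 5.11 in KO 1 (nearest 5.41).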

How the results depend on the processing

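Over 20 alternatives, 43 of the named genes gave 860 values. Of these values 760 kept direction and side of the threshold, 73 lost and 14 gained a call, and 13 changed sign. The genes nearest to Asns, the eIF2 kinases other than Eif2ak2, Prodh2, Ass1, Slc6a19 and the cell type markers were not among the 43. The cause of these changes was not tested. No alternative called Asns, Phgdh, Psat1, Psph or Slc7a11. Sign changes when quantile normalization was repeated or cyclic loess applied were, in that order, -0.21 and -0.20 for Psat1, -0.24 and -0.20 for Psph, -0.047 and -0.043 for Shmt2, -0.31 and -0.29 for Mthfd1, and -0.25 and -0.24 for Vldlr. Leaving out 1 array gave -0.36 to 0.11 for Phgdh, -0.00068 to 0.18 for Psph and -0.013 to 0.21 for Mthfd1.

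Members called higher numbered 0 to 2 without 1 array (2 without WT 1, Shmt2 and Aldh18a1, beside 3713 of all 22180 genes). Members called lower numbered 0 to 2 (2 without WT 2, Mthfd2 and Slc7a5, beside 1146 of all genes). Lower members numbered 2 after a second quantile normalization (beside 1142 of all genes) and 2 under cyclic loess (beside 1178). There was 1 with array weights (beside 2314) and 1 with the replicate block (Slc7a5, adjusted p = 0.0407 by limma). The block changed no other member's call and gave 3698 higher and 1348 lower genes of all. Over all genes, higher calls were 770 in males only, 1228 after the second quantile normalization, 1521 after cyclic loess and 1781 to 3713 without 1 array. Lower calls were 145 in males only, 615 after median centring, 837 with dim rows left out and 459 to 2357 without 1 array. The median change of all genes was -0.06, 0.08 after median centring and 0.26 with dim rows left out. Genes of the 4 other amino acid lists called higher were 4 in males only, 7 after the second quantile normalization, 9 under cyclic loess and 10 to 21 without 1 array (10 without KO 4). Lower were 1 in males only, 6 after median centring, 7 over all rows and 3 to 11 without 1 array (3 without KO 4).

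At least 4 of the 6 pairs must reach the smallest p for any to pass. The pairs that passed under both of these normalizations were Mthfd2 minus Mthfd1 (-0.39 and -0.45), Mthfd2 minus Mthfd2l (-0.43 and -0.51), Slc7a5 minus Slc7a8 (-0.43 and -0.48) and Slc7a5 minus Slc3a2 (-0.92 and -0.92). Without 1 array the ranges were 0.66 to 0.95 for Shmt2 minus Shmt1, -0.55 to -0.41 for Mthfd2 minus Mthfd1, -0.45 to -0.18 for Slc7a5 minus Slc7a8 and -0.95 to -0.76 for Slc7a5 minus Slc3a2. Exact tests of pairs could not pass in males only or with the replicate block, where the smallest possible p is above the threshold. Without scan batches or detection calls, the level of silent receptor genes was the only measure of signal over background.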
